A study of Mus musculus with 9 samples.

Results

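The interferon-inducible GTPases are 10 genes chosen by symbol from the 31053 genes of the count matrix: Gbp2, Gbp3, Gbp4, Gbp5, Gbp7 and Gbp9 of the guanylate-binding protein family, and Igtp, Irgm1, Irgm2 and Iigp1 of the immunity-related GTPase family. They were read in femur bone marrow cells of 3 New Zealand Black (NZB), 3 New Zealand White (NZW) and 3 New Zealand Black-White F1 (NZBWF1) mice, the last being the first-generation cross of the other strains and a common model of lupus. All 9 mice were female, came from The Jackson Laboratory in a single delivery and were 9 to 10 weeks old, and none was treated. Each mouse gave 1 library of 10x Genomics 3' v3.1 single-cell RNA sequencing after lysis of red cells. A level below is given in CPM, the count of unique molecular identifiers (UMIs) of a gene per 1000000 UMIs of all genes in the cells of that class in that mouse. Since each molecule is counted once at its 3' end whatever its length, no division by length was made.

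Guanylate-binding proteins and immunity-related GTPases are enzymes that cells make after interferon, above all interferon gamma. They gather on membranes that enclose bacteria and parasites and help to break them open, and several of the guanylate-binding proteins pass on a signal to inflammasomes. Irgm1, Igtp (also called Irgm3) and Irgm2 are the regulatory members, which hold the other immunity-related GTPases inactive on the membranes of the cell itself, whereas Iigp1 (also called Irga6) is an effector that loads onto the vacuoles of parasites.

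In the annotation of the mouse genome (GRCm38, GENCODE vM21) 4 members lie side by side on the plus strand of chromosome 3 within 144 kb: Gbp5 at chr3:142493978-142522344, Gbp7 at chr3:142530342-142550149, Gbp3 at chr3:142560026-142573209 and Gbp2 at chr3:142620602-142638008. Gbp9 (chr5:105077630-105139539) and Gbp4 (chr5:105115767-105139586) overlap each other and Gbp8 on the minus strand of chromosome 5. Irgm1 lies on the minus strand of chromosome 11 at chr11:48861968-48871683, and Igtp (chr11:58199556-58207591) lies almost wholly within the bounds of Irgm2 (chr11:58199618-58222782) on the plus strand of the same chromosome. Counting by strand cannot part genes that overlap on 1 strand, so the levels of Gbp4 and Gbp9, and of Igtp and Irgm2, are uncertain to the extent that reads fell in shared sequence.

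Promoter windows of 250 bases before to 50 bases after the start (RefSeq, GRCm38.p6) were held for 7 of the 10 members, 8 windows in all, since Gbp3 has 2 starts. They were searched on both strands for the core of the interferon-stimulated response element, GAAANNGAAA (TTTCNNTTTC on the other strand), and for the gamma-activated site, TTCNNNGAA, a motif found in promoters that answer to interferon gamma. The response element core was found in 7 of the 8 windows and in 3.44% of 32851 windows of all genes, and the gamma-activated site in 4 of 8 and in 8.3% of all. The 4 windows with both were those of Gbp5, Gbp7, Igtp and Irgm2. The windows of Gbp7 and Gbp3 are shown because those genes carried most of the strain differences below, and those of Igtp and Irgm2 because they share a long identical run. Capitals mark the matches.
Gbp7 promoter, chr3:142530086-142530385, + strand: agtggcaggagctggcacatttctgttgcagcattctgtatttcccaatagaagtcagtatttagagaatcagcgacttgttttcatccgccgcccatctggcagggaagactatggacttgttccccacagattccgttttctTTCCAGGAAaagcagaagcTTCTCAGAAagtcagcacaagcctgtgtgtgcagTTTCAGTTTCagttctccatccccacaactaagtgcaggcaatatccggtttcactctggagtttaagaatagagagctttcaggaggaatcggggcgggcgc
Gbp3 promoter, chr3:142559794-142560093, + strand: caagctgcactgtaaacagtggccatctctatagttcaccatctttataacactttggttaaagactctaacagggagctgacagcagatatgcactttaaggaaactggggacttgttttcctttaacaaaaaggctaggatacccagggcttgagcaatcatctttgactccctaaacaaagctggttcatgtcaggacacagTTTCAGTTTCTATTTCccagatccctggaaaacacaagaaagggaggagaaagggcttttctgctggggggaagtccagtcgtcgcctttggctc
Igtp promoter, chr11:58199306-58199605, + strand: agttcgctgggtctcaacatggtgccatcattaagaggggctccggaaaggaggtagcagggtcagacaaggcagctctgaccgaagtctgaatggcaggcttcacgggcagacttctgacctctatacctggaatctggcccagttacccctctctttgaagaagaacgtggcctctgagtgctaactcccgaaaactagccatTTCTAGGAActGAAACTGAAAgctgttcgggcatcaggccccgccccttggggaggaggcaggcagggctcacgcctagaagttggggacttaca
Irgm2 promoter, chr11:58214727-58215026, + strand: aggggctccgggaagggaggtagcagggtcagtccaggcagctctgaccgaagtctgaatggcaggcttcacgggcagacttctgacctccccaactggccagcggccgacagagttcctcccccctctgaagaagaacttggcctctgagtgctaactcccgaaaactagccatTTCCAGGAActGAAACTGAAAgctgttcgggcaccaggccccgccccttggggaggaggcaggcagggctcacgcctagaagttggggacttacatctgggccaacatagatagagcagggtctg
The response element core began 53 bases before the Gbp7 start, with gamma-activated sites at 106 and 87 bases before it. The window of the upstream Gbp3 start held 2 overlapping cores at 45 and 39 bases before the start and no gamma-activated site, as did that of Irgm1 at 30 and 24 bases. No core and no site was found at the other Gbp3 start. The windows of Igtp and Irgm2, aligned without gaps, were identical at 184 of 270 bases, with a run of 61 identical bases. A match describes letters and not a bound site.

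The matrix held 68444 called barcodes, of which 39051 were kept: those with 1000 or more UMIs from 500 or more genes, and no more than 10% of UMIs from mitochondrial genes. The kept cells gave 8106539 to 18663189 UMIs per mouse. Each cell was assigned to the class whose fixed markers it carried above free RNA, and 33759 cells (86.4%) fell into 17 classes. Of 38879 different barcode sequences 170 occurred in more than 1 library. Of the 17 classes 14 held at least 10 cells in at least 8 mice. Free RNA came to 11.6 to 45.1 UMIs per cell. Over the 10 members together it accounted for at most 1.75% of the level in 13 of those classes and for 5.35% in immature neutrophils. The members themselves were rare, with 8971 UMIs in gated cells, from 168 for Gbp5 to 1986 for Gbp7, and this limited what could be seen in the small classes. In a class, fewer cells in a state that uses a gene and less RNA per cell cannot be told apart.

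Of the 14 classes, T cells and NK cells carried the highest levels. Summed over the 10 members, T cells had 466 CPM ± 68.0 (SD, n = 9 mice) and NK (natural killer) cells 407 CPM ± 63.2, whereas the lowest class, immature neutrophils, had 20.01 CPM ± 4.41. The ranges over mice of T cells (370 to 562 CPM) and NK cells (316 to 497) lay wholly above those of immature neutrophils (12.0 to 25.4), erythroid cells (32.1 to 78.3) and granulocyte-monocyte precursors (65.2 to 121). Stem or early progenitor cells (219 CPM ± 72.9, n = 8) and plasmacytoid dendritic cells (205 CPM ± 45.6) came next, followed by nonclassical monocytes (176 CPM ± 81.9), monocytes (157 CPM ± 17.2) and mature B cells (156 CPM ± 46.4). With each cell thinned to 1000 UMIs, 35.9% of NK cells and 34.3% of T cells held a UMI of any member, against 1.97% of immature neutrophils. Unthinned, the shares were 50.7%, 45.3% and 4.92%, at median depths of 1418.5, 1292 and 2399 UMIs.

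**Figure D1:**
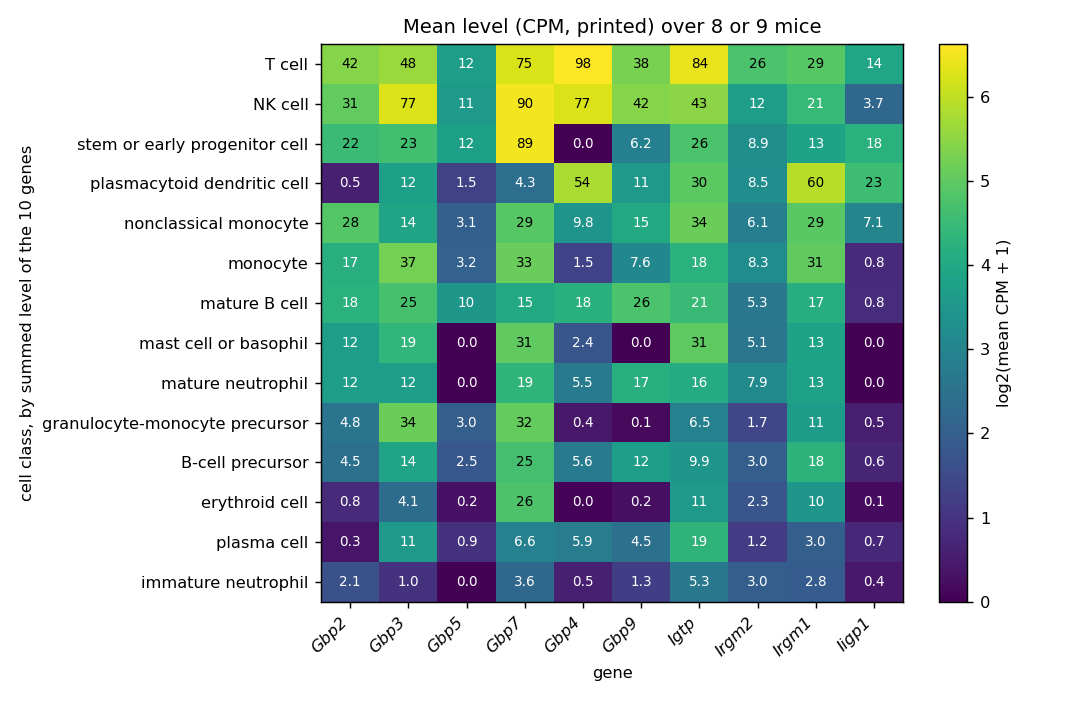
Mean level of each GTPase (columns) in each cell class (rows), printed in CPM and coloured by log2(mean CPM + 1), over the 9 mice or, for stem or early progenitor cells and mast cells or basophils, 8 mice. Gbp4 and Gbp9 are highest in T and NK cells, Gbp7 in NK and stem or early progenitor cells, and Irgm1 in plasmacytoid dendritic cells.

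The classes differed in which member they carried. Gbp4 had 97.6 CPM ± 30.8 in T cells, 76.5 CPM ± 22.2 in NK cells and 54.5 CPM ± 19.9 in plasmacytoid dendritic cells, but 1.51 CPM ± 1.22 in monocytes and no UMI in stem or early progenitor cells. The lowest of the 9 T-cell values of Gbp4 (57.7 CPM) was above the highest value of 11 of the other 13 classes. Gbp9, its overlapping neighbour, was likewise highest in NK cells (41.7 CPM ± 16.6) and T cells (38.2 CPM ± 16.6), with a lower order of classes that was not the same: plasmacytoid dendritic cells had 10.7 CPM ± 2.88 of Gbp9, below mature B cells at 25.9 CPM ± 13.7.

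Gbp7 and Gbp3 were carried more widely. Gbp7 was highest in NK cells (90.3 CPM ± 22.2) and in stem or early progenitor cells (89.2 CPM ± 30.2). Over all mice it made up 47.3% of the summed level of the 10 members in erythroid cells, but this share was not common to the strains. Mean Gbp7 there was 46.2 CPM in NZB, 27.0 CPM in NZBWF1 and 5.24 CPM in NZW, where Igtp had 15.6 CPM. In granulocyte-monocyte precursors Gbp3 (33.9 CPM ± 6.57) and Gbp7 (32.4 CPM ± 8.07) together led, at 35.8% and 34.1% of the sum. Monocytes had 36.8 CPM ± 8.13 of Gbp3, 33.3 CPM ± 12.3 of Gbp7 and 31.1 CPM ± 5.29 of Irgm1. Gbp2 was highest, of the 14 classes, in T cells (41.8 CPM ± 15.0) and NK cells (31.5 CPM ± 23.6), with 4.81 CPM ± 2.16 in granulocyte-monocyte precursors. Gbp5, which promotes assembly of the NLRP3 inflammasome, reached no more than 12.2 CPM ± 8.99, in stem or early progenitor cells. It had 11.9 CPM ± 10.6 in T cells and 10.8 CPM ± 8.70 in NK cells.

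**Figure D2:**
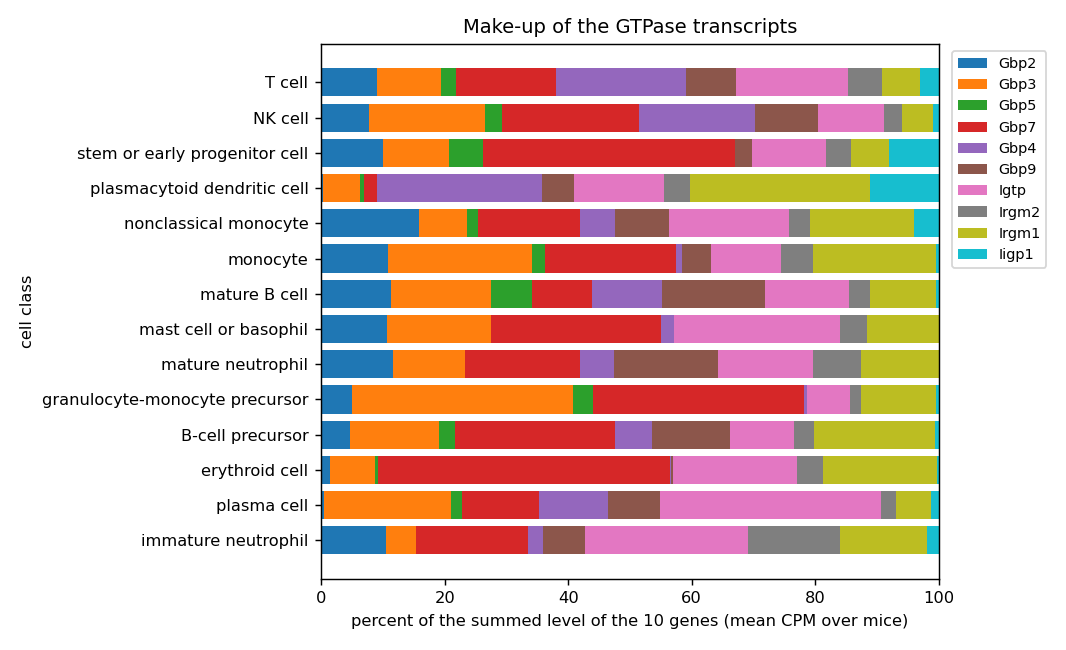
Share of each GTPase (coloured stretches, in percent) in the summed mean level of the 10 genes in each cell class (bars). Irgm1, Gbp4 and Iigp1 take 29.1%, 26.6% and 11.2% in plasmacytoid dendritic cells, whereas Gbp7 takes 47.3% in erythroid cells and 40.7% in stem or early progenitor cells. The shares pool the strains. In erythroid cells mean Gbp7 was 46.2 CPM in NZB, 27.0 CPM in NZBWF1 and 5.24 CPM in NZW, where Igtp had 15.6 CPM.

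Among the regulatory immunity-related GTPases, Irgm1 was highest, of the 14 classes, in plasmacytoid dendritic cells. Its 9 values there ran from 45.4 CPM through a median of 61.4 CPM to 73.8 CPM, and the lowest exceeded every value of 11 of the other 13 classes. Within the 14 classes Igtp was highest in T cells (83.9 CPM ± 38.3), then NK cells (43.1 CPM ± 20.3), and Irgm2 in T cells (25.96 CPM ± 22.6). Megakaryocytes, which are not among the 14, had more Igtp and are described below. The effector Iigp1, on chromosome 18, was nearly restricted to a few classes. Plasmacytoid dendritic cells gave 121 of its 195 UMIs at 22.9 CPM ± 18.8. Stem or early progenitor cells (17.79 CPM ± 26.51, n = 8) and T cells (14.01 CPM ± 13.12) came next. Monocytes, with 13 UMIs, had 0.762 CPM ± 1.26. The order pools the strains: plasmacytoid dendritic cells had means of 41.69 CPM in NZB, 14.03 CPM in NZW and 12.87 CPM in NZBWF1. T cells had 15.56, 17.05 and 9.429 CPM in the same strains. Plasmacytoid dendritic cells were also a larger share of kept cells in NZB (mean 11.62%) than in NZW (2.889%) or NZBWF1 (5.518%).

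The 14 classes were then ordered by mean level for each gene and neighbours in that order compared. In an exact two-sided sign-flip permutation test on log2(CPM + 1), 2 of 130 neighbouring pairs passed after adjustment within each gene, and both were of Irgm1. It was higher in plasmacytoid dendritic cells than in monocytes, by 0.92 on the log2 scale, in 9 of 9 mice, and higher in erythroid cells than in plasma cells, by 1.99, in 9 of 9 (exact permutation p = 0.00391, the smallest 9 mice can give, and adjusted p = 0.0254 for each). A gene with a single pair at that smallest p could not pass, since it adjusts to 0.0508 over 13 pairs, and this was the value for Gbp2 (immature neutrophils above erythroid cells), Gbp4 (plasmacytoid dendritic cells above mature B cells) and Gbp7 (T cells above monocytes), each in 9 of 9 mice. The pairs that missed the threshold are therefore not shown to be alike. With a stricter gate, which asked 1 marker more, 8 of 110 pairs passed, but that gate left 12 classes, and over 11 pairs the smallest p adjusts to 0.0430. With the same 12 classes and the first gate 8 of 110 passed as well, and with the adjustment kept at 13 pairs 2 passed in each.

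In the small classes that entered no test, Igtp stood out in megakaryocytes. The 65 cells gated as megakaryocytes, from 8 mice, gave 64 Igtp UMIs, a pooled level of 188 CPM with an exact Poisson interval of 144 to 240 CPM that covers counting error only, and each of the 8 mice gave at least 1. Over the 3 mice with at least 10 such cells the values were 307 CPM in NZB mouse 2, 61.5 CPM in NZBWF1 mouse 2 and 239 CPM in NZBWF1 mouse 3. At 1000 UMIs per cell 16.9% of megakaryocytes held an Igtp UMI (27.7% unthinned, median depth 4057 UMIs), against 0.417% of immature neutrophils (1.35% unthinned, median depth 2399 UMIs). Macrophages (88 cells) had 54 UMIs of the 10 members together, a pooled 295 CPM (Poisson interval 222 to 386 CPM).

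The first comparison of strains was NZB against NZW. The members were tested with edgeR's quasi-likelihood method on UMIs summed per mouse and class, fitted over all genes, with Benjamini-Hochberg adjustment within each class, and a difference was called at an adjusted p under 0.05. The filter on low counts let 9 members through in at least 1 of 8 classes, which gave 36 tests. Gbp5 passed in none, and no member passed in mature B cells, plasma cells, stem or early progenitor cells, mature neutrophils, nonclassical monocytes, or mast cells or basophils. A gene can pass that filter through the strain in which it is high, and Gbp3 in erythroid cells and Gbp7 in immature neutrophils were near 1 CPM in the lower strain, so the count of calls is no support by itself. Of the 36 tests 8 were called, 4 higher and 4 lower in NZB, where 9.99% of all tests in these classes were called, 5.01% higher and 4.98% lower. The median log2 fold change of the 36 tests was 0.32 and that of all tests -0.00. All 7 calls with a change above 2-fold were of Gbp7 and Gbp3, which are neighbours on chromosome 3. Reads of all strains were handled on the same mm10 build. Whether sequence differences between strains or between family members altered the counts was not tested.

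Gbp7, a guanylate-binding protein linked to oxidative killing of bacteria in macrophages, was higher in NZB erythroid cells, immature neutrophils and B-cell precursors. In erythroid cells it had 53.4, 48.1 and 37.1 CPM in the 3 NZB mice and 6.10, 6.81 and 2.80 CPM in the 3 NZW mice. The NZBWF1 mice had 37.2, 28.6 and 15.2 CPM. The parental strains did not overlap, and every NZBWF1 value lay above every NZW value. Against NZW the log2 fold change in NZB was 3.14 (SE 0.28, adjusted p = 3.43e-08), an 8.84-fold difference. Of erythroid cells, 28.9% held a Gbp7 UMI in NZB and 4.89% in NZW at median depths of 7950.5 and 9532 UMIs, and 4.33% and 0.397% did at 1000 UMIs per cell.

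In immature neutrophils, where the gene was near its floor, the NZB mice had 6.26, 6.33 and 6.39 CPM of Gbp7 and the NZW mice 0.958, 1.38 and 0.252 CPM. NZBWF1 mice had 4.92, 1.996 and 4.01 CPM, between the parents and overlapping with neither. The log2 fold change was 3.01 (SE 0.44, adjusted p = 9.51e-05). B-cell precursors had 92.7, 21.4 and 29.7 CPM in NZB, where the first mouse stood apart, and 7.92, 9.85 and 9.29 CPM in NZW, with 12.1, 20.9 and 16.6 CPM in NZBWF1. Here the log2 fold change was 2.19 (SE 0.40, adjusted p = 6.99e-04) on 458 NZB cells against 2498 NZW cells. It was 1.51 (adjusted p = 0.0474) without NZB mouse 1, and no longer called, at 1.44 (adjusted p = 0.147), under a mitochondrial limit of 5%.

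Gbp7 was tested in 3 further classes and called in none of them. In NK cells the NZB mice had 109, 114 and 125 CPM and the NZW mice 70.1, 78.5 and 85.1 CPM. These do not overlap, but the log2 fold change was 0.57 (SE 0.34, adjusted p = 0.582). In monocytes NZB mice had 22.7, 58.4 and 21.5 CPM and NZW mice 25.6, 40.1 and 24.5 CPM (log2 fold change 0.35, SE 0.39, adjusted p = 0.582), and in granulocyte-monocyte precursors 37.0, 51.5 and 29.7 CPM and 30.4, 34.1 and 28.4 CPM (0.32, SE 0.19, adjusted p = 0.369). The strains overlapped in both, and without NZB mouse 2 the estimates were -0.44 and -0.02. Mouse 2 had the highest value of NZB and of NZW in both classes, but nothing in the labels ties mice of the same number across strains.

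**Figure D3:**
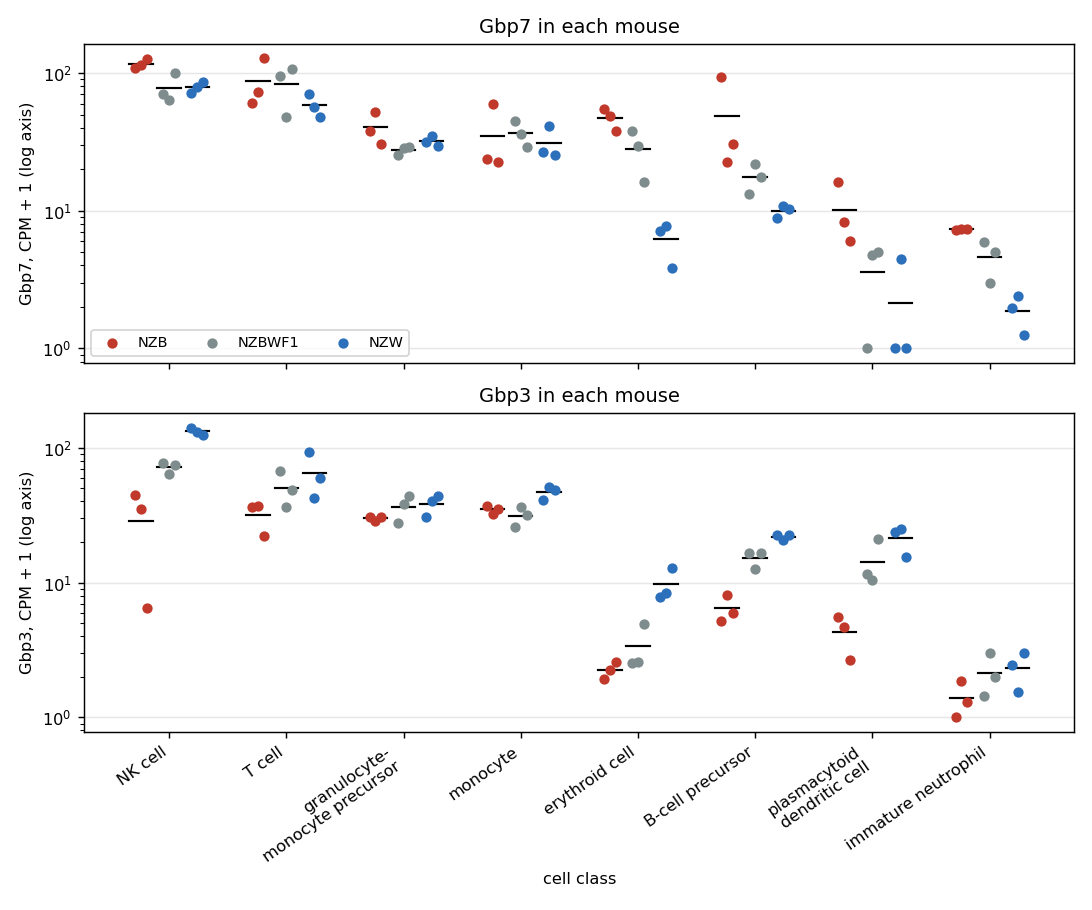
Level of Gbp7 (top) and Gbp3 (bottom) in each mouse, as CPM + 1 on a log axis, in the 8 cell classes with tested members. Points are mice, coloured by strain, and black lines are strain means. The NZB values of Gbp7 lie above all NZW values in all of these classes but T cells, monocytes and granulocyte-monocyte precursors. Those of Gbp3 lie below all NZW values in all but immature neutrophils and granulocyte-monocyte precursors. Not all of these differences were tested or called.

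Whether the strain difference itself varied between classes was tested for the pairs among the 4 classes with most cells. Of 42 member tests 3 were called, all of Gbp7, where 3.39% of all tests were called. Gbp7 was near its floor in immature neutrophils, at means of 6.33 CPM in NZB and 0.863 CPM in NZW. The NZB minus NZW difference of Gbp7 was larger in immature neutrophils than in monocytes by 2.71 on the log2 scale (SE 0.52, adjusted p = 0.00110) and than in granulocyte-monocyte precursors by 2.73 (SE 0.48, adjusted p = 1.97e-04). It was larger in B-cell precursors than in granulocyte-monocyte precursors by 1.89 (SE 0.40, adjusted p = 0.00444), a call that was lost without NZB mouse 1 (1.199, adjusted p = 0.249). Between B-cell precursors and monocytes it differed by 1.92 (SE 0.69, adjusted p = 0.207). For Gbp3 the corresponding values for B-cell precursors were -1.41 against monocytes (SE 0.56, adjusted p = 0.175) and -1.41 against granulocyte-monocyte precursors (SE 0.56, adjusted p = 0.292).

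Gbp3 moved the other way. In NK cells it had 43.4, 34.2 and 5.46 CPM in NZB, 140, 131 and 124 CPM in NZW and 76.1, 63.1 and 73.9 CPM in NZBWF1, 3 groups that did not overlap. The log2 fold change of NZB against NZW was -2.38 (SE 0.46, adjusted p = 4.22e-04). NK cells holding a Gbp3 UMI made up 3.96% in NZB and 19.9% in NZW (medians of 1389 and 1379.5 UMIs), or 2.64% and 11.2% when thinned.

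Erythroid cells had 0.921, 1.23 and 1.59 CPM of Gbp3 in NZB, 6.87, 7.40 and 11.9 CPM in NZW and 1.55, 1.59 and 3.94 CPM in NZBWF1. The log2 fold change was -2.72 (SE 0.49, adjusted p = 2.66e-04). In plasmacytoid dendritic cells the NZB mice had 4.52, 3.65 and 1.69 CPM, the NZW mice 22.7, 24.1 and 14.4 CPM and the NZBWF1 mice 10.5, 9.40 and 20.1 CPM. NZB lay below both other strains there (-2.46 against NZW, SE 0.68, adjusted p = 0.00853). The call was lost without NZW mouse 1 (-2.39, adjusted p = 0.0525) or mouse 2 (-2.32, adjusted p = 0.0727), and in 4 of the 9 fits that left out a mouse Gbp3 did not pass the filter. It held with DESeq2 on the genes that the filter of edgeR kept (-2.56, adjusted p = 0.0322), which is the DESeq2 setting meant below, but not with DESeq2 on every gene with more than 1 count (adjusted p = 0.0678), where tool and filter changed together.

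B-cell precursors had 4.21, 7.15 and 4.96 CPM of Gbp3 in NZB, 21.6, 19.7 and 21.7 CPM in NZW and 15.7, 11.5 and 15.6 CPM in NZBWF1. The 3 strains did not overlap, and NZB differed from NZW by -1.87 (SE 0.48, adjusted p = 0.0193). This call rested on every NZB mouse: without NZB mouse 1, 2 or 3 the adjusted p was 0.0762, 0.0684 and 0.166, at -1.76, -2.18 and -1.76. It was also lost with DESeq2 (adjusted p = 0.111) and with at least 2000 UMIs and 1000 genes per cell (-1.42, adjusted p = 0.298). In the other classes tested Gbp3 was not called, with estimates of -0.45 in monocytes (SE 0.17, adjusted p = 0.0589) and of -0.50 in granulocyte-monocyte precursors (SE 0.20, adjusted p = 0.110). Leaving out NZW mouse 1 brought the monocyte value to -0.52 and past the threshold (adjusted p = 0.0484), and assigning every cell to its highest marker score did so for the precursors (-0.49, adjusted p = 0.0499).

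**Figure D4:**
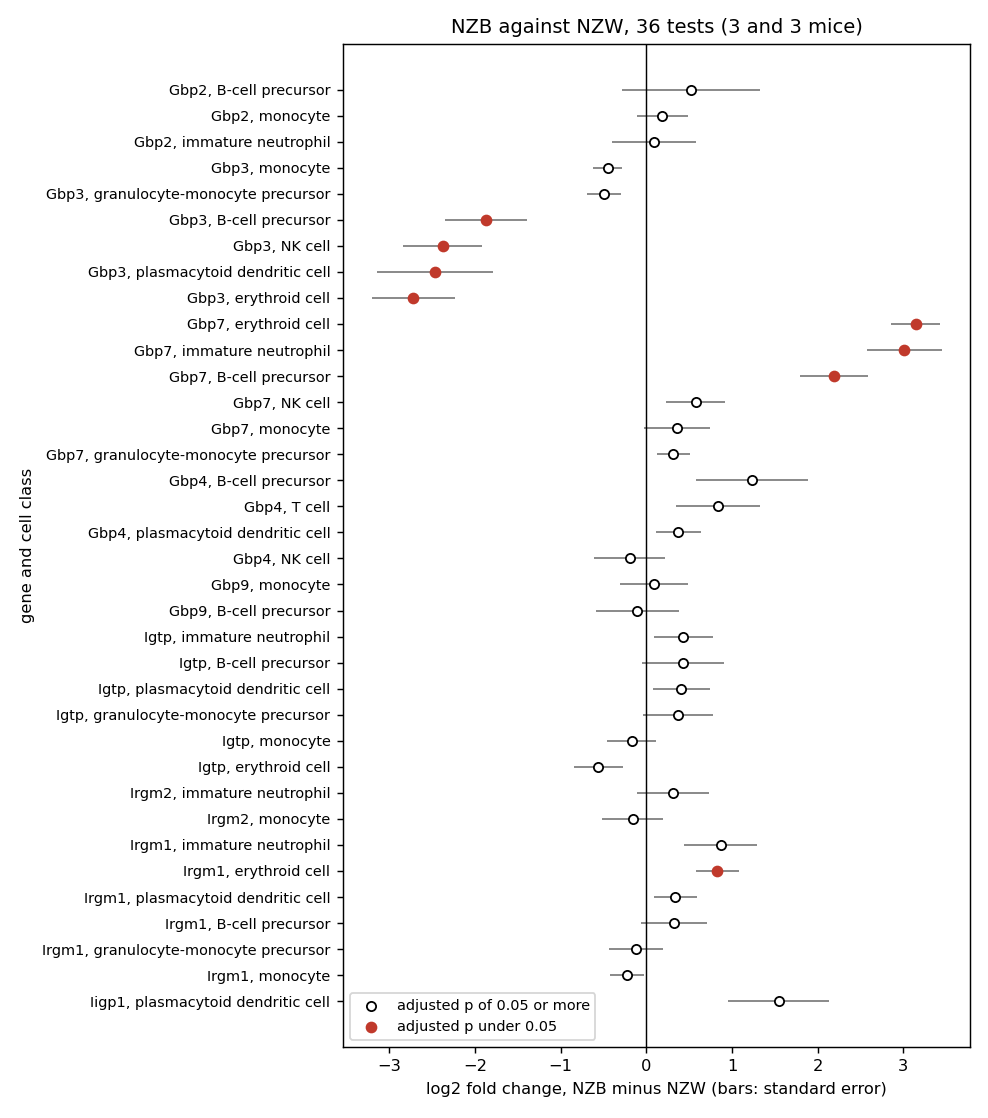
Log2 fold change of NZB against NZW for the 36 tests of a GTPase in a cell class (points), with standard errors (bars), filled where the adjusted p was under 0.05. The 8 filled points are 4 of Gbp3, from -2.72 to -1.87, 3 of Gbp7, from 2.19 to 3.14, and Irgm1 in erythroid cells at 0.83.

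Irgm1 was the remaining call, in erythroid cells, with 13.8, 11.5 and 17.0 CPM in NZB and 6.10, 8.88 and 7.71 CPM in NZW. The strains did not overlap, and the log2 fold change was 0.83 (SE 0.25, adjusted p = 0.0383). The adjusted p passed 0.05 without NZB mouse 1 (0.0789) or 3 (0.230), any of NZW mice 1 (0.0957), 2 (0.0721) and 3 (0.124), or NZBWF1 mouse 2 (0.0510), and with DESeq2 (0.219) or a stricter gate (0.0508). Its estimates then ran from 0.65 to 0.96. In all, 3 of the 4 members tested in erythroid cells were called, where 8.5% of all genes tested in that class were. The 4 are only the members that passed the filter on low counts, which a gene can pass through the strain where it is high. Gbp3 there had means of 1.25 CPM in NZB, 2.36 CPM in NZBWF1 and 8.72 CPM in NZW. The count of calls is therefore no support by itself.

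The markers of several classes differed by strain inside these classes. As a scale, among single genes with at least 10 UMIs in the parental mice, 9.19% of comparisons had NZB wholly above NZW and 14.3% wholly below. A list sums several genes, so these shares are not its exact background, and the counts of lists are descriptions only. In erythroid cells 8 of the 17 marker lists did not overlap between NZB and NZW. The erythroid markers themselves summed to 11646 to 13210 CPM in NZB and 13802 to 14858 CPM in NZW. Also lower in NZB were the markers of plasma cells (19.1 to 22.2 against 32.3 to 35.03 CPM), megakaryocytes (8.29 to 18.04 against 22.1 to 30.5 CPM) and monocytes (4.24 to 4.93 against 6.81 to 10.5 CPM). Higher in NZB were 4 lists, with those of macrophages and conventional dendritic cells among them. The 7 stem or early progenitor markers summed to 71.6 to 86.3 CPM in NZB and 49.0 to 62.6 CPM in NZW, and the 7 NK markers to 2.65 to 7.80 and 0.888 to 2.45 CPM. In B-cell precursors 4 lists did not overlap, all higher in NZB: the markers of megakaryocytes and conventional dendritic cells, of stem or early progenitor cells (25.3 to 40.5 against 10.1 to 17.04 CPM) and of NK cells (17.3 to 37.9 against 3.098 to 10.3 CPM). In immature neutrophils 9 lists did not overlap. The class's own markers (144937 to 161910 against 137039 to 142777 CPM) and the NK markers (39.8 to 45.03 against 18.1 to 29.3 CPM) were higher in NZB. The other 7 were lower in NZB: the markers of T cells (10.5 to 11.1 against 145 to 229 CPM), B-cell precursors (16.9 to 27.1 against 79.03 to 116 CPM), plasma cells (50.8 to 51.6 against 75.6 to 77.1 CPM), stem or early progenitor cells (5.90 to 7.21 against 14.6 to 20.7 CPM), mature B cells, nonclassical monocytes and megakaryocytes. In NK cells 2 lists did not overlap. The monocyte markers summed to 666 to 726 CPM in NZB and 864 to 1034 CPM in NZW, and the NK markers themselves to 9892 to 14566 and 14833 to 18287 CPM. In plasmacytoid dendritic cells 6 lists did not overlap. The class's own markers were higher in NZB, at 6359 to 6636 CPM against 5217 to 5621 CPM. Lower in NZB were the markers of plasma cells (272 to 332 against 477 to 567 CPM), conventional dendritic cells (473 to 518 against 639 to 802 CPM), mature B cells, nonclassical monocytes and stem or early progenitor cells. Their part in the differences of Gbp7 and Gbp3 was not tested.

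Groups of values that did not overlap were also counted, in the 12 classes with 9 mice where the parental mice gave at least 10 UMIs of the gene, the tested classes included. Gbp7 was higher in every NZB mouse than in every NZW mouse in 6 of 10 classes, the additional ones being NK cells, plasmacytoid dendritic cells and mature B cells, and lower in 0. Gbp3 was lower in 6 of 10 classes, T cells and monocytes among them, and higher in 0. Across all genes 9.19% of such comparisons had NZB wholly above NZW and 14.3% wholly below. The 10 members together gave 12 higher and 9 lower of 71. The classes come from the same mice and include those called above, so these counts are not separate support. In mature B cells Gbp2 had 28.1, 75.3 and 21.8 CPM in NZB, 5.97, 6.86 and 0 CPM in NZW and 3.24, 5.55 and 12.1 CPM in NZBWF1, on 23 UMIs, so that NZB lay above both other strains, and with no filter beyond 1 count this difference was called (2.85, adjusted p = 0.0333). That setting also called Igtp in plasma cells, where it had 12.4, 51.1 and 20.6 CPM in NZB and 35.5, 22.9 and 15.7 CPM in NZBWF1, but 0, 12.4 and 0 CPM in NZW, on 1 UMI. Igtp there was higher than in NZW both in NZB (3.96, adjusted p = 8.43e-04) and in NZBWF1 (3.43, adjusted p = 0.0149), and with so few NZW molecules these estimates depend on the prior count of the fit.

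In plasmacytoid dendritic cells, the class in which mean Iigp1 over all mice was highest, it had 27.1, 38.9 and 59.0 CPM in NZB, 7.56, 30.9 and 3.61 CPM in NZW and 0, 22.6 and 16.1 CPM in NZBWF1. NZB overlapped with NZW through NZW mouse 2. The log2 fold change of NZB against NZW was 1.55 (SE 0.59, adjusted p = 0.140), not called. It was called without NZB mouse 1 (1.76, adjusted p = 0.0409), without NZW mouse 2 (2.90, adjusted p = 0.00484), without NZBWF1 mouse 1 (1.55, adjusted p = 0.00755), with the stricter gate (1.71, adjusted p = 0.0350) with no filter beyond 1 count (1.59, adjusted p = 0.00306) and with the replicate number as a block (1.56, adjusted p = 0.0168). Besides Gbp3, described above, the other members tested in that class, Gbp4, Igtp and Irgm1, had estimates of 0.37, 0.41 and 0.34, and none was called.

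The cross was then set against each parent and against the mean of the parental logs, which asks whether NZBWF1 lay midway on the log scale. Of the 36 tests 0 were called with edgeR, where 0.465% of all tests were, with a lowest adjusted p of 0.117 and 7 at an unadjusted p under 0.05. With DESeq2 the count was also 0. Without NZB mouse 1 Gbp2 in monocytes was called above the midpoint (0.82, adjusted p = 0.0455), and without NZBWF1 mouse 1 Igtp in erythroid cells was called below it (-1.48, adjusted p = 0.0225), as both were with no filter beyond 1 count. For the 8 differences between NZB and NZW, which were picked for a difference of the parents, the NZBWF1 mean CPM lay between the parental means, as it did in 86.8% of all 5464 such differences in these classes. This is a description with no test. The lowest estimate against the midpoint was -1.14 for Igtp in erythroid cells (SE 0.32, adjusted p = 0.192) and the highest 0.78 for Gbp3 in plasmacytoid dendritic cells (SE 0.49, adjusted p = 0.857). The lowest adjusted p belonged to Gbp2 in monocytes, with an estimate of 0.74 (SE 0.23).

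**Figure D5:**
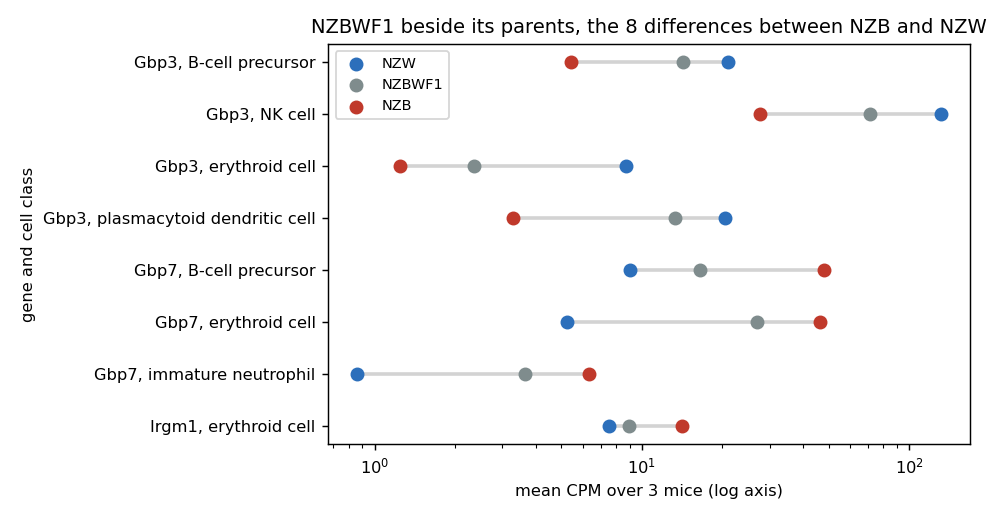
Mean level over 3 mice (CPM, log axis) in NZB, NZW and NZBWF1 for the 8 pairs of gene and cell class that were called between NZB and NZW. These pairs were picked for distant parental points, and an NZBWF1 point between them, as in each pair here, is a description with no test.

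Against NZW, 3 of 36 tests were called, where 1.26% of all tests were, and the 3 were in erythroid cells. Gbp7 was higher in NZBWF1 (log2 fold change 2.26, SE 0.32, adjusted p = 1.40e-04), a call that held without any of the 9 mice but not under a mitochondrial limit of 5% (3.25, adjusted p = 0.0554). Gbp3 was lower (-1.86, SE 0.43, adjusted p = 0.0167), a call lost without NZBWF1 mouse 2 (-1.43, adjusted p = 0.265), without NZW mouse 3 (-1.55, adjusted p = 0.160) or with DESeq2 (adjusted p = 0.180). Igtp had 13.9, 6.75 and 1.69 CPM in NZBWF1 and 14.5, 18.0 and 14.4 CPM in NZW, with 7.37, 11.5 and 11.7 CPM in NZB. Its log2 fold change against NZW was -1.42 (SE 0.33, adjusted p = 0.0179), lost without NZBWF1 mouse 2 (-1.64, adjusted p = 0.113) or 3 (-0.95, adjusted p = 0.163), without NZW mouse 2 (-1.28, adjusted p = 0.130) and with DESeq2 (adjusted p = 0.107). Gbp7 in immature neutrophils was not called in this comparison (1.97, adjusted p = 0.0666), but it was called higher in NZBWF1 without NZBWF1 mouse 2 (2.29, adjusted p = 0.0313), with doublets removed (2.80, adjusted p = 0.0253), with the highest marker score (1.51, adjusted p = 0.0360), under the 5% limit (2.42, adjusted p = 0.0191), with no filter beyond 1 count (1.96, adjusted p = 0.0157) and with the replicate block (1.99, adjusted p = 0.0221).

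Against NZB, 1 of 36 was called, where 3.92% of all tests were: Gbp4 in plasmacytoid dendritic cells. It had 31.5, 41.3 and 40.2 CPM in NZBWF1 and 48.2, 94.9 and 64.1 CPM in NZB, which did not overlap, and 56.7, 41.2 and 72.2 CPM in NZW. The log2 fold change was -0.88 (SE 0.24, adjusted p = 0.0228). It was no longer called without NZB mouse 2 (-0.54, adjusted p = 0.492), without NZBWF1 mouse 1 (-0.81, adjusted p = 0.0605), 2 (-0.93, adjusted p = 0.0725) or 3 (-0.94, adjusted p = 0.0817), with a stricter gate (-0.76, adjusted p = 0.100), with the highest marker score (-0.77, adjusted p = 0.0560) or with DESeq2 (adjusted p = 0.396). In erythroid cells Gbp7 was not called (-0.89, adjusted p = 0.0579), but it was called lower in NZBWF1 than in NZB without NZBWF1 mouse 1 (-1.01, adjusted p = 0.0163) or NZW mouse 3 (-0.89, adjusted p = 0.0381), with the replicate block (-0.88, adjusted p = 0.00741), deeper barcodes (-0.90, adjusted p = 0.0412), the highest marker score (-0.88, adjusted p = 0.0355), the stricter gate (-0.93, adjusted p = 0.0418) and no filter beyond 1 count (-0.89, adjusted p = 4.72e-04). In B-cell precursors it was not called either (-1.35, adjusted p = 0.0958), but was called lower without NZB mouse 2 (-1.71, adjusted p = 0.0385) or NZBWF1 mouse 2 (-1.52, adjusted p = 0.0425), with DESeq2 (-1.45, adjusted p = 0.0437) and with no filter (-1.30, adjusted p = 0.00876). Single settings called it lower in immature neutrophils (the block, -1.05, adjusted p = 0.0477) and in granulocyte-monocyte precursors (the highest marker score, -0.58, adjusted p = 0.0476). Iigp1 in plasmacytoid dendritic cells was not called (-1.43, adjusted p = 0.156), but was called lower in NZBWF1 without NZB mouse 1 (-1.65, adjusted p = 0.0451) or NZW mouse 2 (-1.44, adjusted p = 0.0206), with the replicate block (-1.56, adjusted p = 0.00661) and with no filter (-1.45, adjusted p = 0.00128). Gbp2 in monocytes was called higher than in NZB under the 5% limit (0.92, adjusted p = 0.0284), and Gbp3 in plasmacytoid dendritic cells with no filter (1.99, adjusted p = 0.0489). The comparisons of NZBWF1 with either parent and of the parents share mice. Marker lists were set out above only for NZB against NZW, and the part of class content in the NZBWF1 calls was not tested.

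Other genes of the interferon pathway were read from fixed lists, over all 14 classes. Between NZB and NZW 9.52% of all tests there were called. The list of other interferon-inducible GTPases did not hold Ifi47, and 8 of its 17 tests were of 9930111J21Rik2. Of its genes 6 of 16 could be tested, and 4 of the 17 tests were called, all lower in NZB (median log2 fold change -0.44, against -0.00 over all tests). They included 9930111J21Rik2 in monocytes, at means of 52.0 CPM in NZB and 168 CPM in NZW (-1.69, SE 0.13, adjusted p = 3.11e-11), and Gm12185, likewise in monocytes (-2.71, SE 0.61, adjusted p = 0.00132). Both are members of multigene families, as Gbp7 and Gbp3 are, and reads that match several copies may be lost or counted for the wrong copy.

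Of the ligands, receptors and signalling genes of the pathway 7 of 120 tests were called, 3 higher and 4 lower in NZB. Irf8, a transcription factor of monocytes and dendritic cells, was lower in NZB monocytes (-0.73, SE 0.11, adjusted p = 9.39e-06).

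Other targets of interferon gamma had 18 calls in 111 tests, 15 higher and 3 lower in NZB, with a median of 0.11. Psmb8, an immunoproteasome subunit, was called higher in 4 of 14 classes, most in plasmacytoid dendritic cells, at 844 CPM against 418 CPM (1.07, SE 0.11, adjusted p = 5.74e-14), and in erythroid cells (0.84, SE 0.18, adjusted p = 0.00271), where the call ended under a mitochondrial limit of 5% (0.69, adjusted p = 0.472). Psmb9, another subunit, was also called higher in 4 of 14 classes. Leaving out a mouse ended 2 of the 4 Psmb8 calls, in immature neutrophils (highest adjusted p = 0.107) and monocytes (0.134), and 3 of the 4 Psmb9 calls, in B-cell precursors (0.137), monocytes (0.105) and plasmacytoid dendritic cells (0.105). Of 51 tests of targets of type I interferon 5 were higher and 8 lower. Bst2, the tetherin that holds budding viruses and a marker of plasmacytoid dendritic cells, was lower in NZB monocytes (-0.92, SE 0.15, adjusted p = 8.64e-05), though not when every cell went to its highest marker score (-0.32, adjusted p = 0.0558). In plasmacytoid dendritic cells it was higher in NZB (0.33, SE 0.09, adjusted p = 0.00529), a call that ended without NZW mouse 2 (0.29, adjusted p = 0.0618). Bst2 was also called lower in NZB granulocyte-monocyte precursors (-0.50, SE 0.14, adjusted p = 0.0118), but there the estimate turned sign under a mitochondrial limit of 5%. Rtp4 was lower in monocytes (-1.79, SE 0.26, adjusted p = 4.74e-06) but higher in immature neutrophils (1.55, SE 0.24, adjusted p = 1.77e-04). Of the genes for conjugation and inflammasomes 9 of 93 tests were called, 8 higher and 1 lower in NZB by the fitted fold change. Gabarap, a ubiquitin-like protein that helps bring the GTPases to membranes, was called in 4 of 14 classes, and leaving out a mouse ended 3 of these calls, in immature neutrophils (highest adjusted p = 0.105), plasma cells (0.0935) and plasmacytoid dendritic cells (0.123). In plasma cells the fitted change was 0.64, but the mean level was lower in NZB (240 CPM) than in NZW (268 CPM), so no direction is given for that class. Nlrp3, the inflammasome sensor, was lower in NZB monocytes at 10.6 CPM against 40.0 CPM (-1.85, SE 0.22, adjusted p = 2.04e-07). Inside monocytes 9 of the 17 marker lists did not overlap between NZB and NZW, a count to be read beside the shares of single genes given above. The monocyte markers themselves (5434 to 6556 against 6728 to 7154 CPM) and those of nonclassical monocytes (205 to 244 against 291 to 354 CPM), conventional dendritic cells, plasma cells, mature B cells, B-cell precursors and stem or early progenitor cells were lower in NZB. The markers of immature neutrophils (280.0 to 593 against 210.01 to 212 CPM) and mature neutrophils (325 to 505 against 240.2 to 319.8 CPM) were higher in NZB. Their part in the monocyte calls of these lists was not tested.

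In NZBWF1 against the mean of the parental logs, 0.51% of all tests over the 14 classes were called. The type I targets gave 5 calls in 51 tests, all higher, though with a median log2 fold change of -0.09 over the 51, and against NZW alone they gave 0 calls in 51 tests with edgeR. Against NZB alone 9 of the 51 were higher and 3 lower, where 3.60% of all tests were called. Among the 5 were Oasl2 in monocytes (1.17, SE 0.18, adjusted p = 2.46e-04) and Ifit1 in monocytes (1.47, SE 0.28, adjusted p = 0.00439). The Ifit1 call ended without NZBWF1 mouse 2 (1.26, adjusted p = 0.128) or 3 (1.34, adjusted p = 0.0559). Ifit1 had means of 3.01 CPM in NZB, 21.2 CPM in NZW and 20.2 CPM in NZBWF1, so that the cross lay below NZW, and Oasl2 had means of 10.8 CPM in NZB, 42.7 CPM in NZW and 48.1 CPM in NZBWF1. With at least 2000 UMIs and 1000 genes per cell, Oasl2 (0.69, adjusted p = 0.669) and Ifit1 were no longer called, nor was Rtp4 between the parents (-0.70 in monocytes, adjusted p = 0.284). The other 4 lists gave 0 calls with edgeR.

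Over the 132 sums of a class in a mouse with at least 10 cells, the genes whose log2(CPM + 1) was most like that of a member were found among 6246 genes with a mean of at least 20 CPM. Gbp4 was most like Ablim1 (Pearson's r = 0.737), Lck (0.735) and Klrd1 (0.734), and Gbp9 most like Ablim1 (0.696), Slamf6 (0.692) and Cd2 (0.686). Igtp was most like Ifi47 (0.582), another GTPase of the interferon response, and Irgm1 most like Dip2b (0.546). Gbp7 was most like Ctla2a (0.588), Gbp3 most like Tmsb10 (0.612), Gbp2 most like AW112010 (0.570), Gbp5 most like Cd27 (0.454), Irgm2 most like Hdac4 (0.579) and Iigp1 most like Cd4 (0.561). These sums share mice, libraries and depth, and for the rarer members many are 0, so that the coefficients are descriptions only.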

How the data were processed

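Bone marrow cells of 9 mice were measured by 3' single-cell RNA sequencing, 1 library per mouse, and libraries were grouped by the strain in their labels. Per the submitters' processing notes, reads were handled with bcl2fastq 2.20 and Cell Ranger 3.1.0 on the mm10 build, and the authors deposited a filtered matrix of UMI counts over all libraries. Whether that aggregation brought the libraries to an equal depth is unknown here, so the depths below may not be those sequenced. The number at the end of each barcode was taken as the library's place in the aggregation list, which is the convention of that tool and not stated in the sources used here. The annotation release used by the authors is unknown here. Coordinates come from GENCODE vM21, which held 99.6% of the gene identifiers.

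Barcodes were kept from 1000 UMIs and 500 genes upward if no more than 10% of their UMIs were mitochondrial. A cell entered a class when at least 2 of its markers exceeded the free RNA of that mouse (barcodes under 100 UMIs, Poisson p below 0.05). Cells with 3 or more markers of an unlike class were left out, which removed 7.41% of kept cells, and this was the main guard against doublets. Counts were summed per mouse and class where a mouse had at least 10 cells, and tested with edgeR 4.0.16 (quasi-likelihood, TMM, filterByExpr, all 3 strains in 1 fit) in R 4.3.3. Each comparison of classes between strains used an interaction term with the mouse as block. Orders of classes used an exact two-sided sign-flip permutation test. Adjusted p-values are Benjamini-Hochberg values over all genes tested in a class, or in a pair of classes for the interaction, and for the orders over the 13 pairs of each gene. The depth was 8106539 to 18663189 kept UMIs per mouse. Intervals and floors cover counting error only.

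Alternatives were DESeq2 1.42.0 on every gene with more than 1 count (127 member tests in place of 36, tool and filter changed together), DESeq2 on the genes kept by the filter of edgeR (36 tests, no independent filtering, chosen after seeing the data), RLE scaling, no filter beyond 1 count, deeper barcodes (from 2000 UMIs and 1000 genes upward), a mitochondrial limit of 5%, a stricter gate, the highest marker score, subtraction of free RNA, removal of simulated doublets, a replicate block and omission of each mouse. With no filter beyond 1 count edgeR also made 127 member tests. The fits were tested on simulated data. All 10 members are named. Of each further list the 2 genes called in the most classes are named, in NZB against NZW and in NZBWF1 against the parental mean, together with genes from the 3 most like each member. A result on 1 gene of the lists is not reported here. The members and lists were chosen with earlier results of these data known. Library identity follows the labels, and mice were separate animals.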

Additional observations from a re-analysis of the deposited data

Results flagged for a closer look

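The difference of Gbp7 between NZB and NZW, as a log2 ratio, was not the same in all classes. In immature neutrophils Gbp7 was near its floor, at means of 6.33 CPM in NZB and 0.863 CPM in NZW. The means were 34.2 and 30.1 CPM in monocytes and 39.4 and 31.0 CPM in granulocyte-monocyte precursors. Differences on the CPM scale were not tested. By edgeR's test of the interaction the log2 difference was larger in immature neutrophils than in monocytes by 2.71 (adjusted p = 0.00110) and than in granulocyte-monocyte precursors by 2.73 (adjusted p = 1.97e-04). These held without any of the 9 mice, with estimates of 2.39 to 3.47 and 2.36 to 3.09. It was also larger in B-cell precursors than in granulocyte-monocyte precursors, by 1.89 (adjusted p = 0.00444), but not without NZB mouse 1 (1.199, adjusted p = 0.249). With 3 mice per strain no single mouse was tested as an outlier.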

How the results depend on the processing

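Of the NZB and NZW differences, the Gbp7 calls in erythroid cells and immature neutrophils and the Gbp3 calls in NK cells and erythroid cells held without any of the 9 mice, with adjusted p-values of at most 4.40e-06, 0.00129, 0.0364 and 0.00760. NZB was higher than NZW in 4 tests, which became 2 with a mitochondrial limit of 5% and 7 with no filter, and lower in 4, which became 2 with DESeq2 on every gene with more than 1 count, 1 with deeper barcodes and 0 with the 5% limit. That DESeq2 setting changed tool and filter together (127 tests in place of 36). With no filter edgeR also made 127 tests in place of 36. The shares of all tests called under the alternative settings are not given, so counts of calls under different settings are not directly comparable. DESeq2 on the 36 tests kept by the filter of edgeR, chosen after seeing the data, gave 3 higher and 3 lower calls. The 5% limit left 17 of the 36 tests and the deeper barcodes 18. NZBWF1 against the parental mean gave 1 higher and 1 lower call with no filter in place of 0 and 0. Higher calls against NZB were 1 with the 5% limit and 1 with no filter in place of 0. The 1 lower call became 0 with DESeq2 on every gene (1 on the 36 tests, of Gbp7 in B-cell precursors and not of Gbp4), 2 with the highest marker score, 0 with the 5% limit and 4 with no filter. Against NZW the 1 higher call became 2 with doublets removed, 2 with the highest marker score and 3 with no filter, and the 2 lower calls became 0 with either DESeq2 setting and 0 with the 5% limit. The Ifit1 call in monocytes had an adjusted p of 0.0530 with DESeq2 on every gene and 0.0323 on the genes kept. Neighbouring classes that differed rose from 2 to 8 with the stricter gate and to 8 with the 12 classes it leaves under the first gate, a setting chosen after seeing the data. Adjusted over 13 pairs as before, both gave 2. Where no cause is named, the cause was not tested.

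Without each mouse in turn, NZB against NZW had 3 to 5 higher and 2 to 4 lower calls, NZBWF1 against the parental mean 0 to 1 and 0 to 1, against NZB 0 to 0 and 0 to 2, and against NZW 1 to 2 and 0 to 2. Calls between classes ran from 2 to 4. Estimates that changed sign were those of Gbp7 in granulocyte-monocyte precursors (-0.0197 to 0.48 without a mouse) and monocytes (-0.44 to 0.63), neither called, and of Bst2 in granulocyte-monocyte precursors. That Bst2 difference was called by edgeR between NZB and NZW (-0.50, SE 0.14, adjusted p = 0.0118) and was 0.37 with the 5% limit. Of 891 alternative values of 47 single results, 766 kept direction and side of the threshold, 120 lost and 2 gained a call, and 3 turned. Most of the 47 had been called at first, so few of them could gain a call. Calls gained by tests outside the 47, such as Iigp1 in plasmacytoid dendritic cells, are not in this tally.

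Same-numbered mice had correlated deviations in immature neutrophils (median r = 0.222, against -0.0801 for different numbers), mostly mice 1 and 2. Not every pair there or in the 3 other classes examined passed 0.1 (r from -0.0468 to 0.24 over 4 classes). In every strain, erythroid cells and monocytes made up the smallest share of gated cells in mouse 1 and the largest in mouse 2, and T cells the reverse. Nothing in the labels ties the numbers to a shared batch, and the authors' methods mention batches without saying which mice shared one. The main fits did not treat the mice as paired, though these values do not show that the numbers are without a shared effect. With the replicate block, NZB against NZW had 5 higher and 4 lower calls, NZBWF1 against the parental mean 0 and 0, against NZB 0 and 4, and against NZW 2 and 2. The low UMI counts of the members limited the tests in the 6 classes where no member passed the filter.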
